A study of Mus musculus with 7 samples.

Results

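The genes examined here make, carry, sense and break down prostaglandins in mouse skin papillomas. They are 10 of the 23284 gene symbols in the files, namely the cyclooxygenases *Ptgs1* and *Ptgs2*, the prostaglandin E synthases *Ptges*, *Ptges2* and *Ptges3*, the breakdown enzymes *Hpgd*, *Ptgr1* and *Ptgr2*, the uptake carrier *Slco2a1* and the receptor *Ptger4*. The members were chosen by symbol, with FPKM values of the comparison of TG with CTR papillomas already known, so that their differences between these groups are given as a description, without a test. RNA was sequenced from papillomas of 4 CTR and 3 TG mice of C57Bl/6 background, with each library from a different mouse. All mice carried 1 *tetO-Nanog* allele, inserted downstream of *Col1a1*, were treated with the carcinogen DMBA and the tumor promoter TPA, and drank doxycycline (2 mg/ml) during the whole protocol. TPA was applied in the first part of the protocol only, and a period of observation without TPA followed. CTR mice lacked the transactivator, whereas TG mice also carried *K5-rtTA*, in which the keratin 5 promoter directs the doxycycline-dependent transactivator to the basal layer of stratified epithelia. The *tetO-Nanog* allele holds a *Nanog* cDNA, so the deposited gene values do not separate it from endogenous *Nanog*. The mice were age-matched, and papillomas were collected when the protocol ended or when a mouse had to be killed earlier, which the labels do not record for each mouse. The paper reports such early killing for many TG mice, because of large carcinomas. The time since the last TPA is therefore not known for each papilloma.

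Prostaglandins are made from arachidonic acid, which phospholipases A2 release from membranes. The cyclooxygenases PTGS1 and PTGS2 convert it to prostaglandin H2, and terminal synthases convert this to prostaglandin E2, prostaglandin D2 and other prostanoids that act through G protein-coupled receptors. Signaling ends when SLCO2A1 takes prostaglandins into the cell, HPGD oxidizes them at carbon 15, and PTGR1 or PTGR2 reduces the resulting 15-keto form. In skin, TPA is well known to induce *Ptgs2*, and prostaglandin E2 is a mitogen for keratinocytes. PTGR1 also reduces leukotriene B4 metabolites and reactive alkenals, and it is a known target of NRF2, the transcription factor of the antioxidant response.

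The bases upstream of the RefSeq start of 3 members are shown first, because *Ptgr1* and *Ptges* are the members whose TG and CTR values did not overlap and *Ptgs2* is the inducible cyclooxygenase. Each run is 250 bases long, reads 5′ to 3′ on the strand of the gene and ends next to the start site (RefSeq, GRCm38.p6). Capitals mark matches, on either strand, to the GC box GGGCGG or to the C/EBP motif TTGCNNAA. The windows are chr4:58987079-58987328 on the minus strand for *Ptgr1*, chr2:30903298-30903547 on the minus strand for *Ptges* and chr1:150099781-150100030 on the plus strand for *Ptgs2*.
Ptgr1: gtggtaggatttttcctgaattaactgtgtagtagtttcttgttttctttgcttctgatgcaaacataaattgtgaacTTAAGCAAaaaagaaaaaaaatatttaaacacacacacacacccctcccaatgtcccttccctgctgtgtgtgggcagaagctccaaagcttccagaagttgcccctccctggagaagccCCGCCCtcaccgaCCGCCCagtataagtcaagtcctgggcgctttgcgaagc
Ptges: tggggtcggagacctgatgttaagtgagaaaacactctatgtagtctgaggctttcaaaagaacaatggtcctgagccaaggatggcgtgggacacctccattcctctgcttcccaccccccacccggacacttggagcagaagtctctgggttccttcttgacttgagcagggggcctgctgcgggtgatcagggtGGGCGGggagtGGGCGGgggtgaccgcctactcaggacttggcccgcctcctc
Ptgs2: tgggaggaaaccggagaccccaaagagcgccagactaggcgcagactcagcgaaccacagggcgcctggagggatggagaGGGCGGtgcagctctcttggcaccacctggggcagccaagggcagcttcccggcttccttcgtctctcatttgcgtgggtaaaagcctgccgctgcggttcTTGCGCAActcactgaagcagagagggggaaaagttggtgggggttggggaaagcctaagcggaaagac
The *Ptges* window holds 2 GC boxes, from base -53 to -48 and from -42 to -37, where -1 is the base next to the start. The *Ptgr1* window holds 2 GC boxes on the other strand, from -52 to -47 and from -39 to -34, and a C/EBP match from -172 to -165. The *Ptgs2* window holds a C/EBP match from -69 to -62 and a GC box from -170 to -165, and its RefSeq start lies 93 bases before the start in the files. A GC box was found in the windows of 7 of the 10 members and in 32.7% of the 32851 RefSeq windows of the same length, and a C/EBP match in 2 of the 10 and in 9.56%. No match to the antioxidant response element TGACNNNGC (10.2% of all windows), to the AP-1 site TGANTCA (6.75%) or to the CRE half-site TGACGT (6.47%) was found in the windows of the members. The E-box CACGTG (6.02%) was found for *Ptges2* only among the 10, and TATAAA (12.4%) for *Slco2a1* only. The RefSeq start lies 93 bases before the start in the files for *Ptgs2* and 356 bases before it for *Ptger4*. The bases between these starts were not searched, so a motif there would be missed. Such matches describe letters in these windows and show no binding.

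The library labels were checked first with *Nanog*, which lay between 36.9 and 66.9 FPKM (fragment counts divided by transcript length and library size) in TG papillomas and between 2.70 and 12.7 FPKM in CTR papillomas. The keratinocyte markers were abundant in each library, with a summed level of 6 basal markers between 6632 and 12950 FPKM. Replicate TG 3 stood apart. The summed level of 7 skeletal muscle markers was 600.7 FPKM in TG 3 and between 1.499 and 4.90 FPKM in the other 6 papillomas, that of 6 adipocyte markers, 5 of them at 0 in all CTR papillomas, 34.7 against at most 0.125 FPKM, and that of 6 fibroblast markers 678 against 73.5 to 129 FPKM. The sums of macrophage and dendritic markers (164 against 43.4 to 74.3 FPKM) and of neutrophil markers (113 against 9.02 to 16.1 FPKM) were also highest there. In these lists, 5 of 6 and 3 of 5 measured markers were highest in TG 3, and *Il1b* alone made up 71.9 of the 113 FPKM. In TG 3, 6 of the 7 suprabasal keratinocyte markers were lowest (13160 against 19740 to 29120 FPKM in sum). The summed level of T cell markers was at most 2.47 FPKM. The intervals of Cufflinks implied between 10074859 and 15710562 reads on genes in a library. In bulk RNA, fewer cells of a type and less RNA per cell cannot be told apart.

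All genes whose FPKM averaged 0.5 or more over the papillomas, 12299 in number, were compared with limma, which fits a linear model to log2(FPKM + 0.5) and moderates the variance of each gene. After Benjamini-Hochberg adjustment with a threshold of 0.05, 0% of genes were called higher and 0% lower in TG papillomas. *Nanog* itself, with a log2 difference of 3.45, had an adjusted p of 0.4 from limma, so that an adjusted p above the threshold says little here. The study tested the same papillomas with Cufflinks instead of limma. It listed genes as higher in TG papillomas at a false discovery rate below 0.05, with *Nanog* among them. Before adjustment, 4.86% of genes were below 0.05 on the higher side and 1.96% on the lower side. This split moved with the scaling, from 598 genes higher and 241 lower to 515 and 418 after upper-quartile scaling and 403 and 551 after quantile normalization. All 10 members passed the FPKM minimum. 1 of the 10, *Ptges*, was higher in every TG papilloma than in any CTR papilloma, and 1 of the 10, *Ptgr1*, was lower in every TG papilloma than in any CTR papilloma. Over all genes tested, such complete separation was seen for 4.93% of genes on the higher side and for 2.23% on the lower side. In counts, these were 606 and 274 genes, which became 490 and 502 genes after upper-quartile scaling and 399 and 681 genes after quantile normalization. Because this comparison was used to choose the members, nothing is read from their count. The median log2 difference (TG minus CTR) was -0.005 over the 10 members and 0.06 over all genes tested, of which the 5th percentile was -0.38 and the 95th percentile 0.76.

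**Figure D1:**
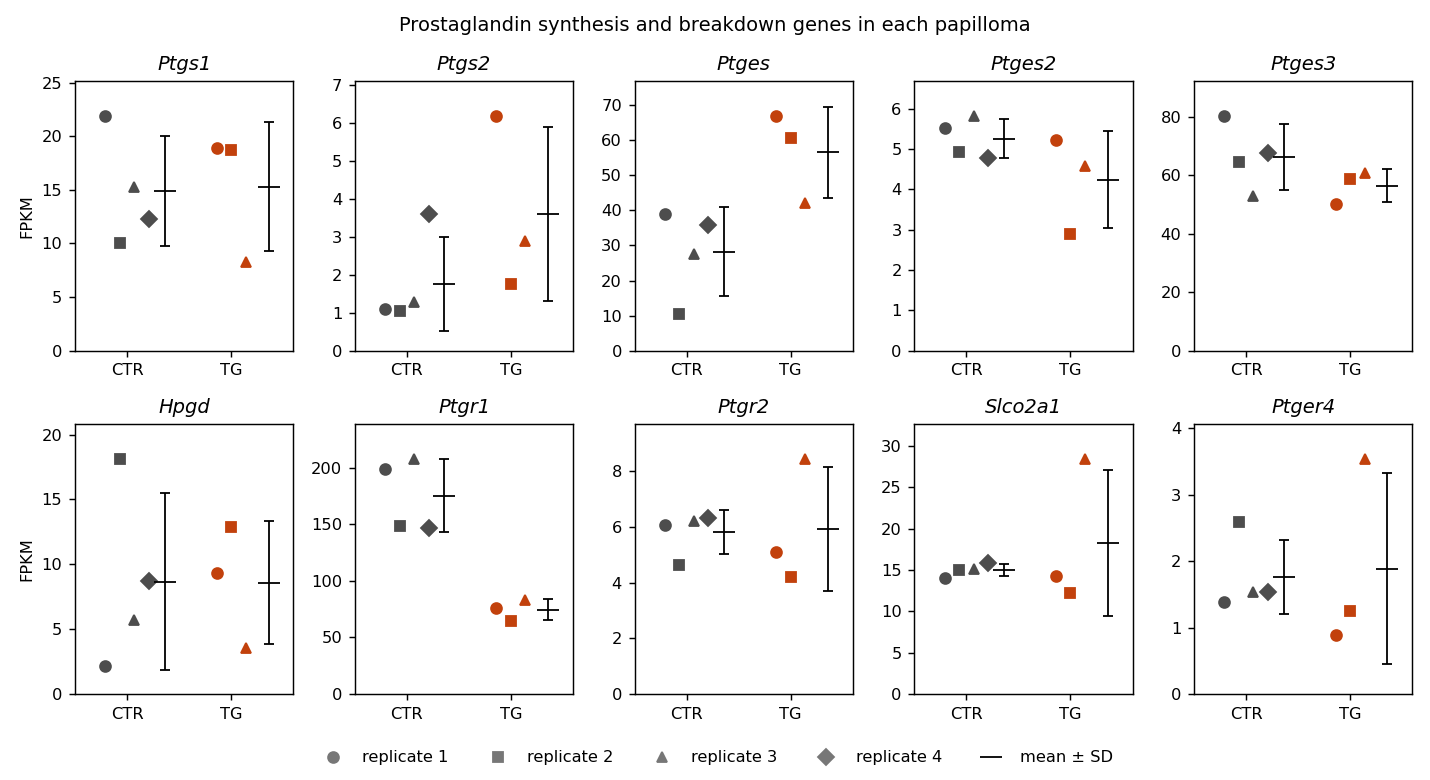
FPKM of the 10 members (vertical axes, linear and starting at 0, with a scale of its own for each gene) in 4 CTR papillomas (gray) and 3 TG papillomas (orange), where marker shapes give the replicate number and the line with bars the group mean ± SD. *Ptgr1* lay between 147 and 207 FPKM in CTR and between 64.9 and 82.7 FPKM in TG papillomas, *Ptges* was higher in each TG papilloma than in each CTR papilloma, and the groups overlapped for the other 8 genes.

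Among the cyclooxygenases, *Ptgs1*, the constitutive form (chromosome 2, from 36230426 to 36252269, GRCm38), was the more abundant in every papilloma. *Ptgs1* had 21.9, 10.04, 15.3 and 12.3 FPKM in CTR 1 to CTR 4 and 18.9, 18.7 and 8.32 FPKM in TG 1 to TG 3. The groups overlapped, with the highest value in CTR 1 and the lowest in TG 3. The means were 14.9 ± 5.14 FPKM (SD, n = 4) in CTR and 15.3 ± 6.05 FPKM (SD, n = 3) in TG papillomas, a log2 difference of 0.01 (standard error 0.34). The lowest *Ptgs1* value coincided with the lowest suprabasal keratinocyte level, that of TG 3. Without TG 3 the *Ptgs1* log2 difference was 0.39, and the part of cell composition in it was not tested.

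*Ptgs2*, the inducible form (chromosome 1, from 150100124 to 150108012), had 1.10, 1.05, 1.29 and 3.62 FPKM in CTR 1 to CTR 4. In TG 1 to TG 3 it had 6.19, 1.76 and 2.89 FPKM. Each TG value exceeded those of CTR 1, CTR 2 and CTR 3, but CTR 4 was above TG 2 and TG 3, so that TG was lower in 2 of 12 pairings across the groups. The mean was 1.77 ± 1.24 FPKM (SD, n = 4) in CTR and 3.61 ± 2.30 FPKM (SD, n = 3) in TG papillomas, with a log2 difference of 0.84 (standard error 0.44). TG 1 carried much of it, and the log2 difference was 0.42 without TG 1. These values rested on between 76 and 538 implied reads in a library, with intervals of Cufflinks reaching 8.62% to 22.9% to either side of the value.

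Of the prostaglandin E synthases, *Ptges* encodes the inducible microsomal enzyme mPGES-1 that acts together with PTGS2 (chromosome 2, from 30889471 to 30903297). *Ptges* had 39.0, 10.5, 27.5 and 35.9 FPKM in CTR 1 to CTR 4 and 66.8, 60.7 and 42.0 FPKM in TG 1 to TG 3. No TG value overlapped with a CTR value, but the nearest papillomas, TG 3 and CTR 1, differed by little, and CTR 2 was far below the rest. The means were 28.2 ± 12.7 FPKM (SD, n = 4) in CTR and 56.5 ± 12.9 FPKM (SD, n = 3) in TG papillomas, a 2.00-fold ratio and a log2 difference of 1.12 (standard error 0.42). Without CTR 2 the log2 difference was 0.71. After upper-quartile scaling the groups of *Ptges* overlapped and the log2 difference was 1.05.

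The other members of this class, *Ptges2* (a membrane-associated synthase, chromosome 2, from 32395890 to 32402740) and *Ptges3* (the cytosolic synthase, also known as the HSP90 co-chaperone p23, chromosome 10, from 128058982 to 128077254), had lower means in TG papillomas with overlapping groups. *Ptges2* lay between 4.78 and 5.82 FPKM in CTR papillomas and had 5.24, 2.90 and 4.57 FPKM in TG 1 to TG 3, a log2 difference of -0.31 (standard error 0.21). Only TG 2 stood clearly below the CTR range, and without TG 2 the log2 difference was -0.09. *Ptges3* had 80.2, 64.6, 52.8 and 67.7 FPKM in CTR 1 to CTR 4 and 50.1, 58.6 and 60.6 FPKM in TG 1 to TG 3, a log2 difference of -0.22 (standard error 0.18). Within the papilloma libraries, *Ptges* made up 31.3%, 13.2%, 31.9% and 33.1% of the summed FPKM of the 3 synthase genes in CTR 1 to CTR 4, and 54.7%, 49.7% and 39.2% in TG 1 to TG 3. This share was therefore larger in each TG papilloma than in each CTR papilloma.

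Prostaglandin breakdown begins with uptake and with HPGD, the 15-hydroxyprostaglandin dehydrogenase. *Hpgd* (chromosome 8, from 56294552 to 56321046) had 2.16, 18.1, 5.66 and 8.72 FPKM in CTR 1 to CTR 4 and 9.32, 12.9 and 3.53 FPKM in TG 1 to TG 3. Both extremes were CTR papillomas, and all TG values fell between them. The means were 8.65 ± 6.83 FPKM (SD, n = 4) in CTR and 8.58 ± 4.72 FPKM (SD, n = 3) in TG papillomas, with a log2 difference of 0.15 (standard error 0.63). Leaving out CTR 1 turned it to -0.33, and leaving out TG 3 gave 0.66.

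*Ptgr1*, the 15-oxoprostaglandin 13-reductase, also known as leukotriene B4 12-hydroxydehydrogenase (chromosome 4, from 58965590 to 58987078), was the most abundant member in every papilloma. It had 199, 149, 207 and 147 FPKM in CTR 1 to CTR 4 and 76.5, 64.9 and 82.7 FPKM in TG 1 to TG 3. The TG values lay close together, and even the highest of them, in TG 3, was far below the lowest CTR value. The mean was 176 ± 32.3 FPKM (SD, n = 4) in CTR and 74.7 ± 9.04 FPKM (SD, n = 3) in TG papillomas, so that CTR papillomas had 2.35 times the TG level, and the log2 difference was -1.22 (standard error 0.20). Leaving out each papilloma in turn gave log2 differences between -1.30 and -1.12, and without TG 3 it was -1.29. Counting error was small, with at least 2582 implied reads and an interval of at most 3.94% to either side in each library. Summed levels of the basal keratinocyte markers, from 6632 to 9899 FPKM in CTR and from 6846 to 12950 FPKM in TG papillomas, overlapped between the groups. Most of that sum was *Krt14*, with 5494 FPKM in CTR 1 and 10940 FPKM in TG 1. The single basal markers overlapped between the groups as well, *Col17a1* by little. The suprabasal sums were 29120, 24210 and 13160 FPKM in TG 1 to TG 3 and between 19740 and 23850 FPKM in CTR papillomas. TG 1 and TG 2 were thus above all CTR papillomas, and TG 3 was below them. The terminal differentiation gene *Ivl*, encoding involucrin, had 159, 107.6 and 36.4 FPKM in TG 1 to TG 3 and at most 26.8 FPKM in CTR papillomas. *Krt10*, a keratin of suprabasal cells, had 3150, 3133 and 181 FPKM in TG 1 to TG 3 and between 917 and 1440 FPKM in CTR papillomas. *Krt1* had 1517, 3309 and 133 FPKM in TG 1 to TG 3 and at most 807 FPKM in CTR papillomas. *Lor*, encoding loricrin, had 1329, 690 and 366 FPKM in TG 1 to TG 3 and between 618 and 1555 FPKM in CTR papillomas. *Krtdap* had 4770, 3666 and 2689 FPKM in TG 1 to TG 3 and between 3841 and 6890 FPKM in CTR papillomas. *Krt6a*, *Krt16* and *Krtdap* were the largest terms of the sum. *Krt16* had 10230, 7346 and 4383 FPKM in TG 1 to TG 3 and between 6375 and 7224 FPKM in CTR papillomas. For *Krt6a* the values were 7965, 5959 and 5372 FPKM in TG 1 to TG 3 and between 5877 and 7163 FPKM in CTR papillomas. The list thus had no common direction. The part of cell composition in the *Ptgr1* difference was not tested.

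The paralog *Ptgr2*, which reduces 15-keto prostaglandins of the E and F series (chromosome 12, from 84285296 to 84315832), was far lower and its groups overlapped. It had 6.09, 4.63, 6.21 and 6.34 FPKM in CTR 1 to CTR 4 and 5.12, 4.22 and 8.43 FPKM in TG 1 to TG 3, with a log2 difference of -0.02 (standard error 0.24). The highest *Ptgr2* value was in TG 3 and the lowest in TG 2. The annotation places an RNA gene on the opposite strand that shares 1896 exon bases with *Ptgr2*, and genes on the opposite strand that share 148 exon bases with *Ptgs1* and 104 with *Slco2a1*. The libraries were prepared with a stranded kit, but whether the strand was used in counting is not given in the sources used here.

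*Slco2a1*, the prostaglandin transporter (chromosome 9, from 103008489 to 103087849), had 14.03, 15.0, 15.1 and 15.9 FPKM in CTR 1 to CTR 4, a narrow range. In TG 1 to TG 3 it had 14.3, 12.2 and 28.4 FPKM. Only TG 3 was above the CTR papillomas, and TG 2 was below them. The log2 difference was 0.18 (standard error 0.27), and -0.18 without TG 3. The transporter is well known from endothelium, and the summed level of 6 endothelial markers was 28.9 FPKM in TG 3, 21.4 in TG 1, 11.7 in TG 2 and between 8.35 and 14.3 in CTR papillomas. The part of these cells in the TG 3 value was not tested.

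*Ptger4*, the EP4 receptor that couples prostaglandin E2 to cyclic AMP (chromosome 15, from 5233404 to 5243831), was the member with the lowest mean level. It had 1.38, 2.59, 1.53 and 1.53 FPKM in CTR 1 to CTR 4 and 0.886, 1.24 and 3.53 FPKM in TG 1 to TG 3. TG 1 and TG 2 were below all CTR papillomas and TG 3 was above them. The log2 difference was -0.05 (standard error 0.37), and -0.51 without TG 3. TG 3 also held the highest summed macrophage and dendritic marker level, 164 FPKM, and the part of such cells in its *Ptger4* level was not tested. The level of *Ptger4* rested on between 51 and 140 implied reads.

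**Figure D2:**
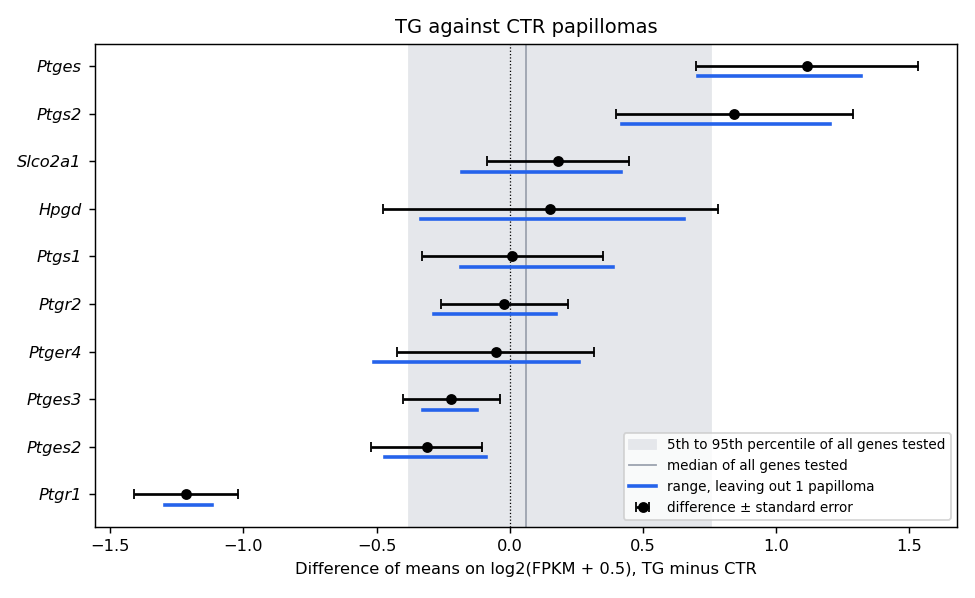
Difference of group means on log2(FPKM + 0.5), TG minus CTR (horizontal axis), for each member with its standard error (black), the range when each papilloma is left out in turn (blue) and the 5th to 95th percentile of 12299 tested genes (gray band). *Ptgr1* (-1.22), *Ptges* (1.12) and *Ptgs2* (0.84) lie outside the band, and the leave-one-out ranges of *Ptgs1*, *Ptgr2*, *Hpgd*, *Slco2a1* and *Ptger4* cross 0.

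The order of the levels was examined within papillomas. FPKM values are scaled by transcript length, which allows a rough order between genes. The annotation names 1 pseudogene after *Ptges3*, and its part in the *Ptges3* level and in the *Ptges* share was not tested. By the mean over 7 papillomas, *Ptgr1* (132 FPKM) was followed by *Ptges3* (62.1), *Ptges* (40.3), *Slco2a1* (16.4), *Ptgs1* (15.1), *Hpgd* (8.62), *Ptgr2* (5.86), *Ptges2* (4.82), *Ptgs2* (2.56) and *Ptger4* (1.82). *Ptgr1* exceeded *Ptges3* in 7 of 7 papillomas. *Ptges3* exceeded *Ptges* in 4 of 4 CTR papillomas but in 1 of 3 TG papillomas. Several neighbors in this order did not differ beyond their spread, as *Slco2a1* exceeded *Ptgs1* in 3 of 7, *Hpgd* exceeded *Ptgr2* in 4 of 7 and *Ptgs2* exceeded *Ptger4* in 3 of 7 papillomas.

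The members also differed in how much they varied among CTR papillomas, a measure that does not use the TG group. The highest CTR value was 8.38 times the lowest for *Hpgd*, 3.70 times for *Ptges*, 3.44 times for *Ptgs2* and 2.18 times for *Ptgs1*. In contrast, it was 1.13 times for *Slco2a1*, 1.22 times for *Ptges2* and 1.41 times for *Ptgr1*. The CTR range of *Hpgd* on the log2 scale was wider than that of 99.3% of the tested genes, that of *Ptges* wider than 97.5% and that of *Ptgs2* wider than 94.7%, whereas that of *Slco2a1* was wider than only 3.95%. The wide ranges had different shapes. CTR 2 had the highest *Hpgd* and the lowest *Ptges*, *Ptgs1* and *Ptgs2* of the CTR papillomas, CTR 1 had the lowest *Hpgd* and the highest *Ptges* and *Ptgs1*, and CTR 4 had the highest *Ptgs2*.

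Ratios between members within a papilloma do not depend on how libraries are scaled to each other. The ratio of *Ptgr1* to *Ptgr2* was 32.7, 32.1, 33.4 and 23.2 in CTR 1 to CTR 4 and 14.9, 15.4 and 9.81 in TG 1 to TG 3. It was smaller in each TG papilloma, with means on the log2 scale of 4.91 ± 0.25 (SD, n = 4) in CTR and 3.71 ± 0.36 (SD, n = 3) in TG papillomas. The ratio of *Ptges* to *Ptges2* was 7.06, 2.14, 4.73 and 7.51 in CTR 1 to CTR 4 and 12.8, 20.9 and 9.18 in TG 1 to TG 3, larger in each TG papilloma. Its means on the log2 scale were 2.27 ± 0.83 (SD, n = 4) and 3.75 ± 0.60 (SD, n = 3). The ratio of *Ptgs2* to *Ptgs1* stayed below 1 in every papilloma, from 0.0502 in CTR 1 to 0.347 in TG 3, and its groups overlapped. The ratio of *Ptgs2* to *Hpgd*, between 0.0582 in CTR 2 and 0.819 in TG 3, overlapped as well.

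**Figure D3:**
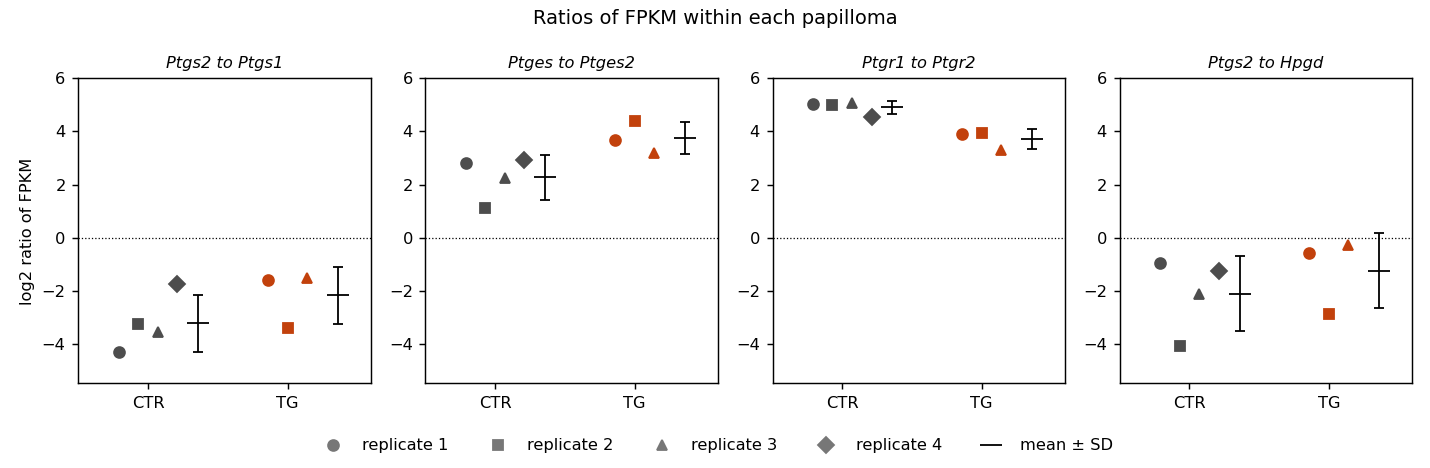
Ratio of FPKM between pairs of members within each papilloma on the log2 scale (vertical axis), for CTR (gray) and TG (orange) papillomas with the group mean ± SD. The ratio of *Ptgr1* to *Ptgr2* is 4.53 or more in CTR and 3.94 or less in TG papillomas, that of *Ptges* to *Ptges2* is 2.91 or less in CTR and 3.20 or more in TG papillomas, and the other ratios overlap.

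The rest of the pathway was examined with lists of 70 genes in 6 classes that are not members, of which 68 had a usable estimate and 47 passed the FPKM minimum. With limma, 0 of the 47 passed an adjusted p of 0.05 over all genes tested in either direction, and their adjusted p-values lay between 0.564 and 0.995. 4 of the 47 were completely separated on the higher and 4 on the lower side, where 4.93% and 2.23% of all tested genes were. Over the 47 genes the log2 difference had a median of -0.06, beside 0.06 over all genes tested.

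Arachidonate release is the step before the cyclooxygenases. Of 18 listed genes 12 were tested, 6 with a positive and 6 with a negative difference, a median log2 difference of 0.02 and 0 completely separated. The largest differences belonged to *Pla2g2f*, the secreted phospholipase A2 of the suprabasal epidermis, to *Pla2g4b* and to *Mgll*, which releases arachidonate from a monoglyceride. *Pla2g2f* had 1.80, 7.43, 9.44 and 13.5 FPKM in CTR 1 to CTR 4 and 36.3, 44.7 and 4.03 FPKM in TG 1 to TG 3 (log2 difference 1.47, standard error 0.85, adjusted p = 0.826 from limma). TG 1 and TG 2 were above all CTR papillomas and TG 3 was within their range, and the difference was 2.52 without TG 3, 0.86 without TG 2 and 0.92 without CTR 1. The suprabasal marker sum was 29120, 24210 and 13160 FPKM in TG 1 to TG 3, and the part of those cells in the *Pla2g2f* values was not tested. *Pla2g4b* had means of 42.9 ± 14.5 FPKM (SD, n = 4) in CTR and 25.1 ± 4.33 FPKM (SD, n = 3) in TG papillomas (log2 difference -0.70, adjusted p = 0.715 from limma). For *Mgll* the log2 difference of 0.64 (adjusted p = 0.848 from limma) was 0.08 without TG 3, which had the highest value of 7.07 FPKM, 0.36 without CTR 1 and 1.03 without TG 1. *Anxa1*, encoding annexin A1, an inhibitor of phospholipase A2, was abundant in all papillomas, from 1325 FPKM in TG 2 to 3799 FPKM in TG 3.

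Among the other prostanoid synthases, 9 of 14 genes were tested, with a median log2 difference of -0.08 and 0 completely separated. *Hpgds*, the hematopoietic prostaglandin D synthase, had 1.49, 1.65, 1.74 and 4.25 FPKM in CTR 1 to CTR 4 and 7.41, 11.1 and 2.75 FPKM in TG 1 to TG 3. It was higher in TG in 11 of 12 pairs, with only CTR 4 above TG 3, and the log2 difference was 1.36 with a standard error of 0.46 (limma, adjusted p = 0.686). The summed level of 6 mast cell markers was 2.69, 4.92 and 8.53 FPKM in TG 1 to TG 3 and between 2.93 and 5.84 FPKM in CTR papillomas. The part of such cells in the *Hpgds* values was not tested. *Cbr3*, a carbonyl reductase, had means of 54.0 ± 6.69 FPKM (SD, n = 4) in CTR and 35.97 ± 14.6 FPKM (SD, n = 3) in TG papillomas (log2 difference -0.65, adjusted p = 0.705 from limma; -0.38 without TG 3). *Akr1b3*, an aldo-keto reductase, was listed near 0 in TG 2 and at 15.98 to 60.5 FPKM in the other papillomas, so its log2 difference of -1.64 (adjusted p = 0.861 from limma) rests on 1 estimate, and it was 0.32 without TG 2 and -2.64 without TG 1. *Ptgds*, the other prostaglandin D synthase, reached at most 0.707 FPKM, and *Tbxas1*, the thromboxane synthase, at most 0.280 FPKM. *Ptgis*, the prostacyclin synthase of vessel walls, was listed at 0 in all 4 CTR papillomas and in TG 2, and at 0.115 FPKM in TG 3.

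Of the other prostanoid receptors and prostaglandin-sensing genes, 5 of 11 were tested, with a median log2 difference of 0.26. *Ptger1*, the EP1 receptor, had 0.319, 0.747, 0.619 and 0.730 FPKM in CTR 1 to CTR 4 and 0.993, 0.856 and 1.96 FPKM in TG 1 to TG 3. *Ptger3*, the EP3 receptor, had 0.314, 0.537, 0.485 and 0.330 FPKM in CTR 1 to CTR 4 and 0.631, 0.659 and 1.07 FPKM in TG 1 to TG 3. Both were higher in each TG papilloma than in each CTR papilloma, with the highest value in TG 3, and neither passed the adjustment (log2 differences 0.65 and 0.48, adjusted p = 0.732 and 0.801 from limma). The difference of *Ptger1* was 0.39 without TG 3. *Pparg*, a nuclear receptor that binds prostaglandin J2 derivatives, had 9.09, 6.22, 7.67 and 3.51 FPKM in CTR 1 to CTR 4 and 2.25, 1.26 and 3.66 FPKM in TG 1 to TG 3. It was lower in TG in 11 of 12 pairs (only TG 3 exceeded CTR 4), with a log2 difference of -1.32 and a standard error of 0.36 (limma, adjusted p = 0.587). After upper-quartile scaling its groups no longer overlapped. *Pparg* is also a gene of adipocytes, whose other markers were high in TG 3 alone. The part of cell composition in the *Pparg* values was not tested. *Ppard*, the related receptor of epidermis, lay between 30.7 and 58.5 FPKM, and *Ptgfrn*, a regulator of the prostaglandin F receptor, between 13.5 and 29.0 FPKM, with overlapping groups. *Ptger2*, the EP2 receptor, had at most 0.418 FPKM in any papilloma, *Ptgdr* at most 0.477, *Ptgfr* at most 0.362, *Ptgir* at most 0.235, *Tbxa2r* at most 0.570 and *Ptgdr2* (listed as *Gpr44*) at most 0.0286 FPKM. Among the prostaglandin E2 receptors, *Ptger4* therefore had the highest mean level over the 7 papillomas.

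Among the other prostanoid transporters, 3 of 5 genes were tested. *Slco3a1*, a carrier related to *Slco2a1*, had 1.91, 4.28, 3.77 and 5.98 FPKM in CTR 1 to CTR 4 and 8.40, 16.1 and 6.35 FPKM in TG 1 to TG 3 (log2 difference 1.25, standard error 0.38, adjusted p = 0.633 from limma). The groups were completely separated, though by little between TG 3 and CTR 4, and they overlapped after upper-quartile scaling. With Cufflinks, the study listed *Slco3a1* among the genes higher in TG papillomas. *Slco4a1* (log2 difference -0.22) and *Abcc1* (0.03) overlapped. The exporter *Abcc4* had a failed estimate and was left out.

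Genes that respond to cyclic AMP and prostaglandin E2 had a median log2 difference of 0.33 over 7 tested of 10, and of -0.04 without TG 3. Over all genes tested these medians were 0.06 and -0.03. *Pde4b*, a cyclic AMP phosphodiesterase, was completely separated, with 0.470 to 1.26 FPKM in CTR and 1.39, 1.901 and 3.51 FPKM in TG 1 to TG 3 (log2 difference 0.85, standard error 0.32, adjusted p = 0.702 from limma, and 0.55 without TG 3). *Areg*, encoding the EGF receptor ligand amphiregulin, had 16.1, 9.66, 30.1 and 24.6 FPKM in CTR 1 to CTR 4 and 34.1, 37.1 and 23.3 FPKM in TG 1 to TG 3 (log2 difference 0.73, adjusted p = 0.796 from limma, and 0.43 without CTR 2). *Nr4a2*, an immediate early nuclear receptor, was lower in 10 of 12 pairs with TG 3 inside the CTR range (log2 difference -0.60, adjusted p = 0.820 from limma, -0.94 without TG 3 and -0.40 without TG 1).

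The NRF2 targets were listed because *Ptgr1* is one of them, with earlier results of these data known, so nothing is read from their counts. All 11 measured genes were tested, and 10 had a negative and 1 a positive difference, where 4916 of all 12299 tested genes were negative. The median log2 difference was -0.41, beside 0.06 over all genes tested. It was -0.48 after upper-quartile scaling and -0.53 without TG 3, beside 0.002 and -0.03 over all genes tested. The 4 completely separated genes were *Aldh3a1*, an aldehyde dehydrogenase, *Gstm1*, a glutathione transferase, and *Gclc* and *Gclm*, the subunits of glutamate-cysteine ligase, all lower in TG papillomas. Of all genes tested, 2.23% were completely separated on the lower side. *Aldh3a1* had 75.5, 244, 119 and 64.3 FPKM in CTR 1 to CTR 4 and 3.18, 25.1 and 38.4 FPKM in TG 1 to TG 3 (log2 difference -2.83, standard error 0.77, adjusted p = 0.587 from limma), and the difference was -1.79 without TG 1. *Gclm* had 103, 96.6, 118 and 77.3 FPKM in CTR 1 to CTR 4 and 30.7, 63.1 and 71.4 FPKM in TG 1 to TG 3 (log2 difference -0.91, adjusted p = 0.664 from limma, and -0.54 without TG 1). The log2 difference was -1.37 for *Gstm1* and -0.97 for *Gclc*, with an adjusted p of 0.564 from limma for both. *Nqo1*, *Srxn1*, *Slc7a11*, *Gsr*, *G6pdx* and *Me1* had negative differences with overlapping groups, and *Hmox1* had a positive difference (0.54) with 160 FPKM in TG 1, which was 0.09 without TG 1.

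**Figure D4:**
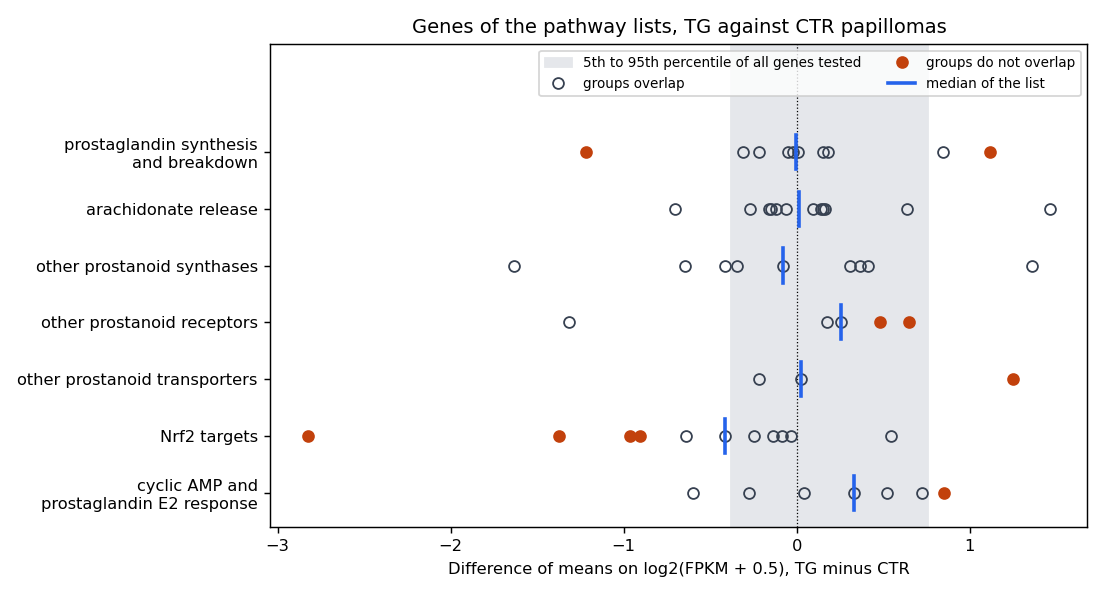
Difference of group means on log2(FPKM + 0.5), TG minus CTR (horizontal axis), for the tested genes of each list (1 circle a gene), filled where the TG and CTR values do not overlap, with the list median (blue) and the 5th to 95th percentile of all genes tested (gray band). Filled circles number 4 of 11 among the NRF2 targets, all lower in TG, and 2 of 5 among the other prostanoid receptors, both higher. They number 1 of 3 among the other transporters and 1 of 7 among the cyclic AMP and prostaglandin E2 response genes, both higher. Of the 10 members, 1 was higher and 1 lower, and the remaining lists hold 0. The NRF2 list was chosen with earlier results known, so nothing is read from its count. Of all genes tested, 2.23% did not overlap on the lower side and 4.93% on the higher side.

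Finally, the genes whose pattern was most like that of *Ptgr1* and of *Ptgs2* were named by the mean absolute difference between centered log2 values over the 7 papillomas. For *Ptgr1* they were *Gm12603* (0.20), *Paox*, encoding a polyamine oxidase (0.21), and *Lonrf3* (0.21), where the median over all tested genes was 0.64. *Paox* had 10.9 ± 1.63 FPKM (SD, n = 4) in CTR and 6.02 ± 0.974 FPKM (SD, n = 3) in TG papillomas, and *Gm12603* had 23.4 ± 1.22 and 12.8 ± 3.41 FPKM. For *Ptgs2* they were *Tulp4* (0.19), *Fam167a* (0.23) and *Slc16a3*, the lactate transporter MCT4 (0.23), where the median was 0.65. *Slc16a3* had 6.68, 8.00, 7.19 and 13.6 FPKM in CTR 1 to CTR 4 and 21.8, 9.55 and 19.9 FPKM in TG 1 to TG 3, so that CTR 4 was the highest CTR papilloma as for *Ptgs2*. A shared pattern follows from how these genes were chosen and is no result of its own.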

How the data were processed

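Total RNA of 7 papillomas was sequenced by the authors as polyA+ stranded libraries, with single reads of 40 bases. Per the labels and the methods, TopHat 2.0.4 placed the reads on GRCm38/mm10 with 2 mismatches and 5 multihits allowed (Bowtie 0.12.7, Samtools 0.1.16), and the authors deposited FPKM values for genes from Cufflinks 1.3.0, each with an interval and a status. Groups and replicate numbers were taken from the titles. Files were joined by symbol and locus. Entries with the same symbol were summed (240 symbols), and 162 symbols with a failed estimate in any library were left out. Locus starts in the files count from 0 and are printed 1-based. Implied reads were derived from the interval width, under the assumption that it reflects counting error alone. They are approximate, and the intervals cover counting error only.

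Genes averaging 0.5 FPKM or more were fitted with limma 3.58.1 (R 4.3.3) on log2(FPKM + 0.5), with variances moderated along a trend, 2-sided p-values and Benjamini-Hochberg adjustment at 0.05. The pseudocount shrinks differences of genes with low values. The fit was tested on simulated data. Sums, ratios and figures were made with Python 3.11.15, pandas 2.3.3 and matplotlib 3.10.9. The members and lists were chosen with earlier results of these data known. The genes named were the 10 members, *Nanog*, the 3 genes of each list with the largest absolute log2 difference, the prostanoid receptors, *Hpgds*, *Ptgds*, *Ptgis* and *Tbxas1*, and the 3 genes most like *Ptgr1* and *Ptgs2*. *Anxa1*, *Gclm* and the other NRF2 targets were named after their values were seen, and the motifs were chosen at that stage. *Ivl*, *Krt10* and the other single cell type markers were also named after their values were seen. *Fam213b* and *Ptgdr2* were found under older symbols, and *Abcc4* and *Txnrd1* had failed estimates. The alternatives were other pseudocounts, filters, scalings and weights, the highest entry of a symbol, a replicate block, leaving out each papilloma and, added after the data were seen, the 5 libraries of lower depth. Promoter windows are from RefSeq (GRCm38.p6).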

Additional observations from a re-analysis of the deposited data

Results flagged for a closer look

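Among the 4 CTR papillomas, 7 of 57 genes examined (the 10 members and the 47 tested genes of the lists) had a papilloma at 1 end of the range whose gap to the nearest other, relative to the whole range, exceeded the critical value of Dixon's test. About 1 in 20 groups is expected to do so by chance if values are normally distributed, and 5.51% of the 12299 tested genes did so. 3 of the 7 are members. *Ptgs2* was 3.62 FPKM in CTR 4 and between 1.05 and 1.29 FPKM in the other CTR papillomas. *Ptgr2* was 4.63 FPKM in CTR 2 against 6.09 to 6.34 FPKM, and *Ptger4* was 2.59 FPKM in CTR 2 against 1.38 to 1.53 FPKM. *Hpgds* was 4.25 FPKM in CTR 4 against 1.49 to 1.74 FPKM, so that the same papilloma stood apart for *Ptgs2* and *Hpgds*. *Ppard* was 30.7 FPKM in CTR 2 against 50.9 to 53.0 FPKM. *Akr1b3* was 60.5 FPKM in CTR 3 against 15.98 to 18.2 FPKM, and *Slc7a11* was 42.1 FPKM in CTR 1 against 19.0 to 21.9 FPKM.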

How the results depend on the processing

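The signs of the differences of *Ptgr1*, *Ptges*, *Ptgs2*, *Ptges2* and *Ptges3* were kept under each of 14 alternatives. Of these, the highest entry of a symbol left each member unchanged, because each had 1 locus. The replicate block repeated the differences found without CTR 4. Both settings are still counted among the 14. The sign changed under 8 of 14 for *Ptgs1*, 7 for *Ptgr2*, 4 for *Ptger4*, 3 for *Hpgd* and 1 for *Slco2a1*. No member moved by more than its spread between replicates (1 SD). Leaving out 1 papilloma cannot move a difference that far with groups of this size, so nothing is read from it. The log2 difference of *Ptgs2* ranged from 0.35 in the libraries of lower depth to 1.20 without TG 2. Members completely separated on the higher side numbered 0 after upper-quartile scaling instead of 1 (*Ptges*), and between 1 and 2 when a papilloma was left out (*Ptgs2* joined without CTR 4). On the lower side they numbered between 1 and 2 when a papilloma was left out (*Ptges3* joined without CTR 3, *Ptges2* without TG 1 and *Ptger4* without TG 3), and 3 in the libraries of lower depth only. Fewer samples make separation more likely. Over all genes, sample quality weights in limma called 49 genes higher and 36 genes lower, leaving out a papilloma gave between 0 and 2 higher (2 without TG 1, 1 each without CTR 3 and TG 3) and between 0 and 1 lower (1 without TG 3), and the libraries of lower depth gave 1 higher. Before adjustment, 598 genes were higher and 241 lower at 0.05, against 961 and 358 without the filter on low values, 515 and 418 after upper-quartile scaling, 403 and 551 after quantile normalization and 1161 and 1248 with quality weights. The same-numbered papillomas did not deviate together (correlations -0.186, 0.043 and -0.146). With the replicate block, 0 genes were called higher and 0 lower, and the log2 difference was -1.30 for *Ptgr1*, 1.28 for *Ptges* and 1.18 for *Ptgs2*. These differences are the same as those without CTR 4, which is alone in its block, so they are no separate check. For the 47 other pathway genes the sign changed in 42 of 841 comparisons with an alternative, and 0 genes were called under any, which says nothing of stability in a design where *Nanog* had an adjusted p of 0.4 from limma. The order of levels by the median kept 8 of 10 members at their rank. CTR 3 and TG 1 were the deeper libraries, 1 in each group, too few for a comparison. Among the 5 others the log2 difference was -1.15 for *Ptgr1*, 1.02 for *Ptges* and 0.35 for *Ptgs2*.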
